A study of Mus musculus with 6 samples.

Results

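The genes described here are 10 chemokine ligands, 5 of the CC class (Ccl2, Ccl6, Ccl7, Ccl9 and Ccl11) and 5 of the CXC class (Cxcl1, Cxcl2, Cxcl10, Cxcl12 and Cxcl14), taken by name from the 31053 genes of the deposited counts. RNA was measured in qMuSCs, the quiescent stem cells of resting skeletal muscle, freshly sorted from hindlimb muscles of mice aged 3 to 4 months, with a library per mouse. The 3 WT mice (c124, c129 and c130) were Pax7nGFP/+, Pax7+/+ and Dio2Fl/Fl, and the 3 cD2KO mice (fl125, fl126 and fl128) were Pax7nGFP/+, Pax7-CreERT2/+ and Dio2Fl/Fl. All 6 mice carried the GFP reporter used for the sort, the floxed Dio2 alleles (the gene of type 2 deiodinase, D2) and had received tamoxifen. The CreERT2 allele was present only in cD2KO mice and is driven from Pax7, so that cells which do not express Pax7 are expected to keep Dio2, and no WT mouse controls for Cre alone.

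Chemokines are small secreted proteins that bind G protein-coupled receptors and steer the migration of cells, and the CC and CXC classes are named for the spacing of their first cysteines. In muscle they are best known for drawing leukocytes into injured tissue. Ccl2 and Ccl7 act on monocytes through Ccr2, Ccl6 and Ccl9 are ligands of Ccr1 made in large amounts by myeloid cells, and Ccl11 attracts eosinophils through Ccr3. Cxcl1 and Cxcl2 recruit neutrophils through Cxcr2, Cxcl10 is induced by interferon and binds Cxcr3, Cxcl12 binds Cxcr4 and the scavenging receptor Ackr3, and Cxcl14 is a ligand of tissue stroma and epithelia.

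All 10 ligands had at least 1 count in each of the 6 mice, and all 10 passed the expression minimum of a mean above 10 DESeq2-normalized counts. Ccl2, Ccl7 and Ccl11 had 1 to 9 counts per cD2KO mouse and passed only because of their WT counts. They thus entered the test through the group in which they were higher, which limits the calls of Ccl2 and Ccl7 as lower. Total counts per mouse were between 2184073 and 3897787, and 3 counts, taken as the level at which a gene is not told apart from 0, equal 0.768 to 1.36 CPM (counts scaled to a common library total). These floors, and the intervals of shares below, cover counting error only. Dio2, the targeted gene, was at 5.38, 1.84 and 3.46 CPM in WT mice c124, c129 and c130 and at 6.80, 1.71 and 0.314 CPM in the libraries labelled fl125, fl126 and fl128. The library labelled fl125 thus had the highest Dio2 level of the 6, against its label, although reads were summed over all exons and reads of the floxed part were not counted apart. Dio2 was below the expression minimum, was not tested, and overlaps Gm26512 on the opposite strand. Over the ligands, WT mouse c129 was highest for 9 of the 10 and the library labelled fl125 lowest for 8, so values without these libraries are given below.

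Of the 10 ligands, 6 fell in cD2KO at an unadjusted p under 0.05 in edgeR's quasi-likelihood test (Ccl2, Ccl7, Cxcl1, Cxcl2, Cxcl10 and Cxcl14) and 0 rose. DESeq2 called 7 lower, these 6 and Ccl6, and limma voom called 6, without Ccl2 and Ccl7 but with Ccl6 and Ccl9, and neither called a ligand higher. Among all 11633 genes tested, 770 (6.62%) were lower and 621 (5.34%) were higher at that threshold. After Benjamini-Hochberg adjustment over all genes, Cxcl10 and Cxcl14 had an adjusted p under 0.1 with edgeR, and no ligand had one under 0.05. These adjusted p depended on the tool, being 0.0156 for Ccl2, 0.00829 for Cxcl10 and 0.00201 for Cxcl14 with DESeq2, whereas for Cxcl10 and Cxcl14 they were 0.207 and 0.155 with limma voom and 0.122 and 0.118 with non-robust edgeR. Over all genes 0.774% had an edgeR adjusted p under 0.1, 0.490% lower and 0.284% higher. The ligands' median log2 fold change was -2.002, against -0.02 for all genes tested, and all 10 point estimates were below 0, as were 51.9% of those of all genes. In 7 of the 10, every cD2KO mouse lay below every WT mouse, a pattern found in 10% of all genes. With WT mouse c129 left out the count of lower ligands was 4, as it was without the library labelled fl128. With c129 and fl125 both left out, an alternative chosen after seeing the data, it was 5, but of partly different ligands. Cxcl2, Cxcl10 and Cxcl14 kept their call, Ccl2, Ccl7 and Cxcl1 lost it, and Ccl6 and Ccl9 gained one.

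**Figure D1:**
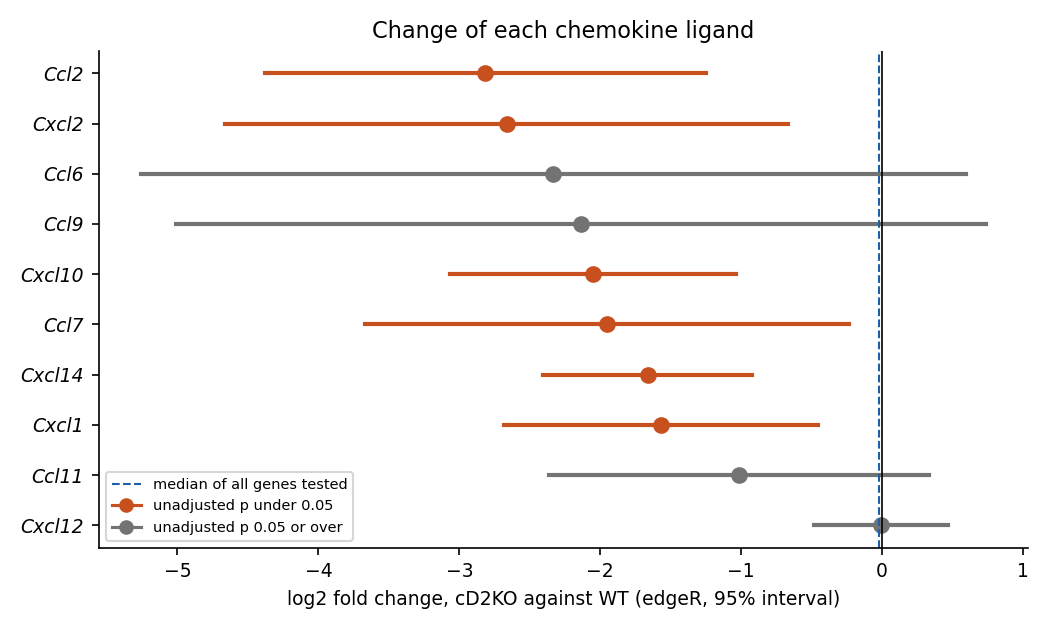
Log2 fold change of each ligand in cD2KO against WT mice from edgeR (points) with its 95% interval (bars), 3 mice per group. Orange marks an unadjusted p under 0.05; the interval of Cxcl14 runs from -2.40 to -0.92 and that of Cxcl12 is centred near 0, while those of Ccl6 and Ccl9 are the widest.

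Among the CC ligands, Ccl6 was by far the most abundant. It was at 613, 1680 and 979 CPM in WT mice c124, c129 and c130 and at 17.7, 281 and 350 CPM in the libraries labelled fl125, fl126 and fl128. Its neighbour Ccl9 was at 202, 552 and 318 CPM in the same WT mice and at 4.99, 110 and 127 CPM in the cD2KO libraries in the same order. For both, all cD2KO mice lay below all WT mice and the library labelled fl125 lay far below the rest, the highest and lowest mouse differing 95.1-fold for Ccl6 and 111-fold for Ccl9. Group means of Ccl6 were 1091 ± 542 CPM over the WT mice against 216 ± 175 CPM over the cD2KO mice (± SD, n = 3 in either group). The log2 fold change of cD2KO over WT was -2.33 with a standard error (SE) of 1.11 (unadjusted p = 0.0942, adjusted p = 0.514 with edgeR, 3 mice per group). Ccl9 had a log2 fold change of -2.14 (SE 1.09, adjusted p = 0.539 with edgeR). Neither passed the unadjusted threshold in robust edgeR with all 6 mice. Ccl6 did with DESeq2 (unadjusted p = 0.0319), limma voom (0.00284) and non-robust edgeR (0.00715), and Ccl9 with limma voom (0.00456) and non-robust edgeR (0.0106). Without the library labelled fl125 the log2 fold changes were smaller, -1.75 for Ccl6 and -1.55 for Ccl9, but the unadjusted p were 9.3e-04 and 0.00221, with fl126 and fl128 close to each other. Leaving out c129 and fl125 together gave -1.30 for Ccl6 (edgeR unadjusted p = 2.3e-05, adjusted p = 0.00709). For Ccl9 it gave -1.10 (edgeR unadjusted p = 8.3e-05, adjusted p = 0.0115).

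Ccl6 and Ccl9 are paralogs that lie side by side on chromosome 11 of mm10, within a span of 20.2 kb from 83572919 to 83593087. Their reads kept nearly the same proportion in every mouse. Ccl6 took 75.2%, 75.3% and 75.5% of the reads of the pair in the WT mice, in the order above, while its share was 78.0%, 71.9% and 73.4% in the libraries labelled fl125, fl126 and fl128. The exact binomial 95% intervals ran from 69.2% to 74.5% in fl126 and from 74.2% to 76.4% in c129, and that of fl125, which had 39 reads on Ccl6 and 11 on Ccl9, from 64.0% to 88.5%. The interval of fl126 lay partly below those of the WT mice, while the level of Ccl6 itself ranged 95.1-fold. How reads that fit both paralogs were counted is not given in the sources used here.

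**Figure D2:**
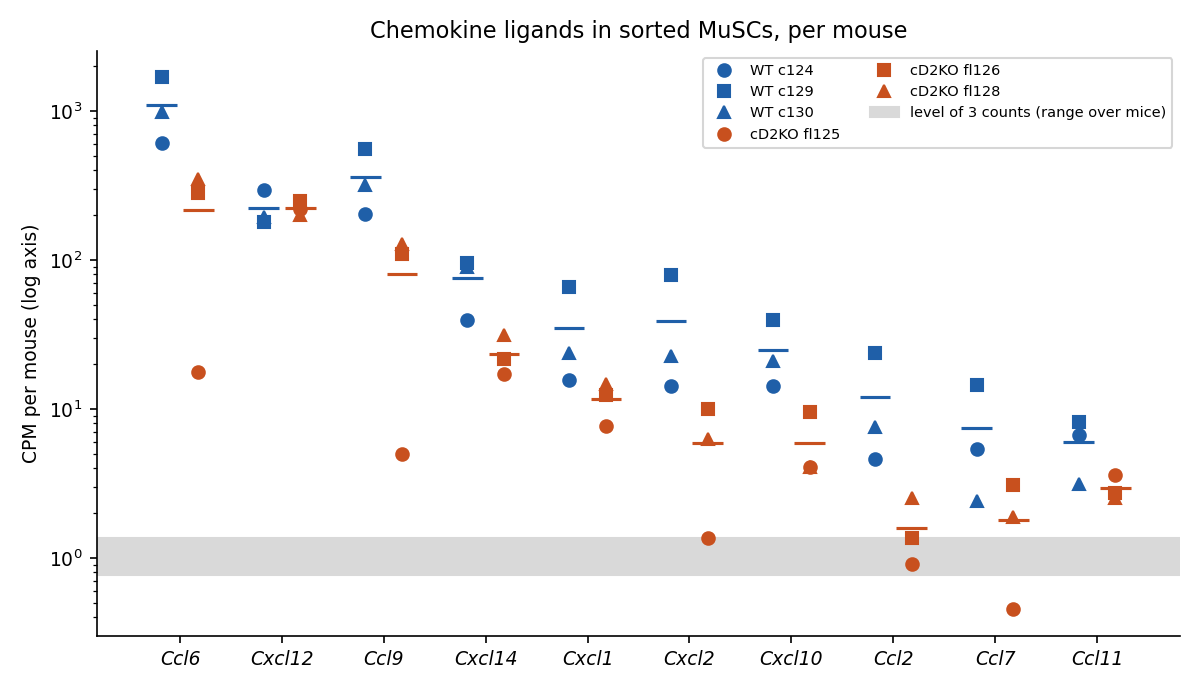
CPM of each ligand in each mouse on a log axis, WT in blue and cD2KO in orange, with group means as bars and the level of 3 counts in grey. Ccl6 ran from 17.7 CPM in the library labelled fl125 to 1680 CPM in c129, whereas Cxcl12 stayed between 179 and 295 CPM in all mice.

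The monocyte chemoattractants Ccl2 and Ccl7 and the eosinophil chemoattractant Ccl11 were the scarcest ligands, and they form a second cluster on chromosome 11, 27.4 kb long from 82035571 to 82062955. Ccl2 was at 4.61, 23.6 and 7.62 CPM in WT mice c124, c129 and c130 and at 0.906, 1.37 and 2.51 CPM in the libraries labelled fl125, fl126 and fl128, which held 2, 4 and 8 counts. The groups did not overlap, and c129 stood well above the other WT mice. The log2 fold change of Ccl2 was -2.82 (SE 0.73, adjusted p = 0.124 with edgeR), a 7.05-fold lower level, with cD2KO counts near the floor of 3 counts. It kept an unadjusted p under 0.05 with any single mouse left out and had one of 0.0637 without c129 and fl125. Ccl7 was at 5.38, 14.4 and 2.42 CPM in the WT mice and at 0.453, 3.08 and 1.89 CPM in the cD2KO libraries. Here fl126 lay above c130, so the groups overlapped, and the log2 fold change of -1.95 (SE 0.80, adjusted p = 0.361 with edgeR) lost its call without c129, fl125 or fl128, with log2 fold changes of -1.04, -1.52 and -1.96 and unadjusted p of 0.265, 0.0730 and 0.0570. Ccl11 was at 6.66, 8.10 and 3.12 CPM in WT and at 3.63, 2.74 and 2.51 CPM in cD2KO, each of the latter from 8 counts. It overlapped between the groups and did not pass the test, with a log2 fold change of -1.02 (SE 0.63, adjusted p = 0.566 with edgeR) and a 95% interval from -2.37 to 0.33.

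Cxcl1 and Cxcl2, the neutrophil chemoattractants, are a further pair of neighbouring genes, on chromosome 5 within 14.7 kb from 90891241 to 90905938. Cxcl1 was at 15.6, 65.9 and 23.9 CPM in WT mice c124, c129 and c130 and at 7.70, 12.3 and 14.8 CPM in the libraries labelled fl125, fl126 and fl128. Cxcl2 was at 14.3, 79.6 and 22.5 CPM in the WT mice and at 1.36, 9.92 and 6.29 CPM in the cD2KO libraries. Its value in fl125 came from 3 counts, the floor. Neither gene overlapped between the groups, yet for Cxcl1 the distance was small, 15.6 CPM in the lowest WT and 14.8 CPM in the highest cD2KO mouse, and c129 stood well above the other WT mice for both. The log2 fold change was -1.57 for Cxcl1 (SE 0.51, adjusted p = 0.228 with edgeR) and -2.67 for Cxcl2 (SE 0.84, adjusted p = 0.287 with edgeR). Without c129 that of Cxcl1 was -0.72 with an unadjusted p of 0.104, so its call rests on this mouse, and that of Cxcl2 was -1.58 with an unadjusted p of 0.0224. Cxcl2 lost its call without fl128, at an unadjusted p of 0.0819, while its log2 fold change was -2.69.

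The pair did not keep a fixed proportion. Cxcl1 took 52.1%, 45.3% and 51.5% of the reads of both genes in the WT mice, in the order above, while its share was 85.0%, 55.4% and 70.1% in the libraries labelled fl125, fl126 and fl128, so that all cD2KO mice lay above all WT mice. The exact 95% interval was 62.1% to 96.8% for fl125, which rests on 17 and 3 reads, 42.5% to 67.7% for fl126, and 57.7% to 80.7% for fl128. That of c124 reached up to 61.5%, so single libraries of the groups are not all told apart, and the smallest p that 3 mice against 3 can give in an exact permutation test is 0.1.

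Cxcl10, the interferon-induced ligand of Cxcr3, lies farther along chromosome 5, from 92346638 to 92348889 on the minus strand. It was at 14.3, 39.4 and 21.1 CPM in WT mice c124, c129 and c130 and at 4.08, 9.58 and 4.09 CPM in the libraries labelled fl125, fl126 and fl128. The groups did not overlap, with means of 25.0 ± 12.97 CPM over the WT mice against 5.92 ± 3.18 CPM over the cD2KO mice (± SD, n = 3 in either group). The log2 fold change was -2.05 (SE 0.47, adjusted p = 0.0997 with edgeR), or 4.15-fold lower. It passed the unadjusted threshold with each single mouse left out, with log2 fold changes between -2.59 and -1.54, and without c129 and fl125 together it was -1.34 with an unadjusted p of 0.0146. Exons of Art3 overlap Cxcl10 on the opposite strand, and the use of strand in counting is not given in the sources used here, so a part of its reads is uncertain.

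Promoter sequences were available for 7 of the 10 ligands in a RefSeq table for GRCm38.p6, the assembly of mm10. Ccl2, Ccl7 and Ccl11 had no entry. The 250 bases before the RefSeq start of Cxcl1, Cxcl2 and Cxcl10 are shown because these inducible ligands fell together and share a letter pattern. Capitals mark matches, on either strand, to the NF-kB consensus, to the AP-1 pattern TGANTCA and to an interferon pattern, TTTC repeated after a gap of 2 bases. The patterns were chosen after the sequences were seen. Cxcl1 is from chr5:90890995-90891244 (plus strand), Cxcl2 from chr5:90903649-90903898 (plus strand) and Cxcl10 from chr5:92348890-92349139 (minus strand), each written 5′ to 3′ along its gene.
Cxcl1: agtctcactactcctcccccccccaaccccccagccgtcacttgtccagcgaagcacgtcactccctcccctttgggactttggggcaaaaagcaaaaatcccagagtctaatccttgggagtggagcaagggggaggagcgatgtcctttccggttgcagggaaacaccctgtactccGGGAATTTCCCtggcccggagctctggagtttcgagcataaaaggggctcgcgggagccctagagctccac
Cxcl2: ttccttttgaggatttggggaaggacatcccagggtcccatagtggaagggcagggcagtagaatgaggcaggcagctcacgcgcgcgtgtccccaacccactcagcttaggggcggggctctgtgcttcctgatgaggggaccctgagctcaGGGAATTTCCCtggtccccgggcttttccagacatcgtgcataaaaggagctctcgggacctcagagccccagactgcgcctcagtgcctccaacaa
Cxcl10: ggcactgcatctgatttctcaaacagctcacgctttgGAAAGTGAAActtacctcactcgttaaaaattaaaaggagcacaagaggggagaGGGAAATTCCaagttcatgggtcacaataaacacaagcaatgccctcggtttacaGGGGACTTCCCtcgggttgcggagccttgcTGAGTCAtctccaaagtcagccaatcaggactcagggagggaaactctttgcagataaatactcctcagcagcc
Cxcl1 and Cxcl2 both hold the decamer GGGAATTTCC, 71 to 62 bases before the start in Cxcl1 and 97 to 88 bases before it in Cxcl2, a string found in this window of 0.0852% of 32851 promoters. Capitals run 1 base longer there because the consensus also matched on the other strand, shifted by 1 base. The decamer was itself read from the promoters of Cxcl1 and Cxcl2. That both hold it was therefore fixed in advance, and its share over all promoters is no test. Cxcl10 holds the NF-kB consensus from 159 to 150 and from 104 to 94 bases before the start, the latter again as overlapping matches on both strands, the AP-1 pattern from 74 to 68 and the interferon pattern from 213 to 204. The NF-kB consensus was present in 7.25% of all promoters, the AP-1 pattern in 6.75% and the interferon pattern in 2.98%. Of the other ligands with a promoter, Ccl9 matched the NF-kB consensus and the AP-1 pattern, and Cxcl14 matched the interferon pattern. Ccl6 and Ccl9 both held GGAAGTG, a pattern of ETS factor sites, on the strand opposite to the gene (8.55% of promoters). Cxcl12 matched none of the patterns searched in this window. These are matches of letters and no binding was measured.

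Cxcl14 gave the most stable difference of the 10 ligands. It lies on chromosome 13 from 56288643 to 56296551 on the minus strand. Its level was 39.7, 95.4 and 90.01 CPM in WT mice c124, c129 and c130, against 17.2, 21.6 and 31.4 CPM in the libraries labelled fl125, fl126 and fl128. All cD2KO mice lay below all WT mice, and neither c129 nor fl125 was far from the next mouse of its group. Means were 75.0 ± 30.7 CPM over the WT mice against 23.4 ± 7.28 CPM over the cD2KO mice (± SD, n = 3 in either group), a log2 fold change of -1.66 (SE 0.34, adjusted p = 0.0902 with edgeR), or 3.17-fold lower. The log2 fold change stayed between -1.98 and -1.42 with single mice left out, each with an unadjusted p of at most 0.00297, and was -1.24 without c129 and fl125 (unadjusted p = 0.00328).

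Cxcl12, the ligand of Cxcr4, was the exception. It lies on chromosome 6 from 117168535 to 117181367 on the plus strand. It was at 295, 179 and 194 CPM in WT mice c124, c129 and c130 and at 218, 248 and 200 CPM in the libraries labelled fl125, fl126 and fl128. The groups overlapped fully and the highest mouse exceeded the lowest 1.65-fold. Means were 223 ± 63.2 CPM over the WT mice against 222 ± 24.6 CPM over the cD2KO mice (± SD, n = 3 in either group), a log2 fold change of -0.01 (SE 0.22, adjusted p = 0.991 with edgeR) with a 95% interval from -0.48 to 0.47. Its sign was positive in 7 of the alternatives run, between 0.01 and 0.25. In c129, where 9 of the 10 ligands were at their highest, Cxcl12 was at its lowest.

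**Figure D3:**
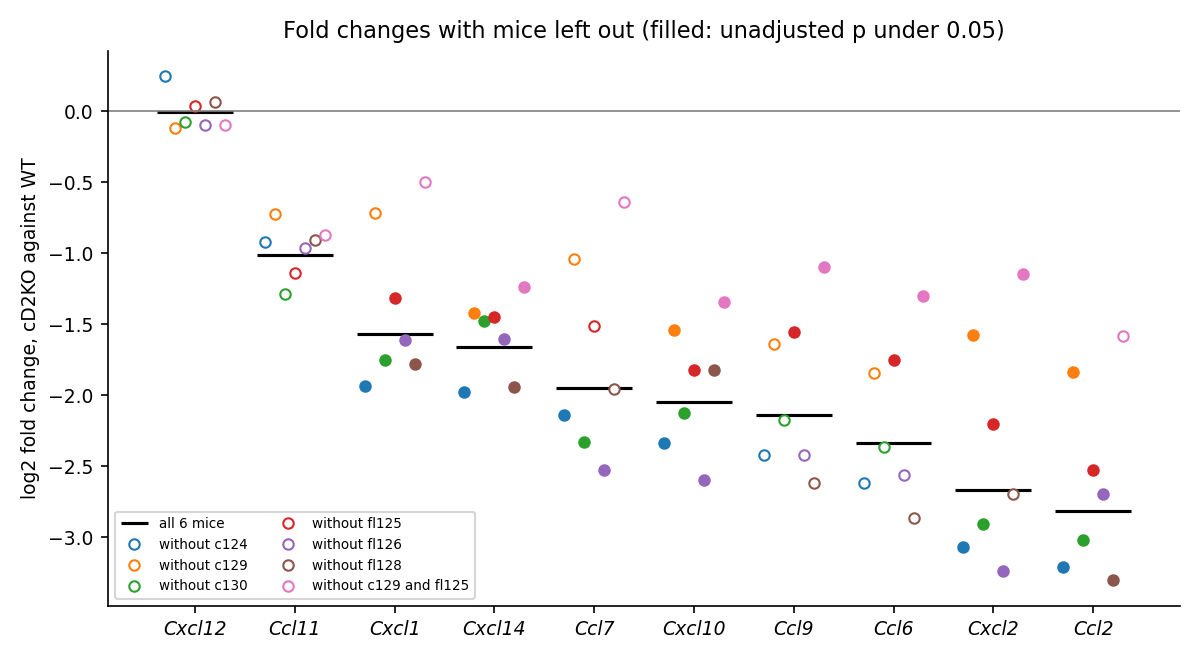
Log2 fold change of each ligand in edgeR's fit of all 6 mice (black lines) and with mice left out (circles, filled where the unadjusted p was under 0.05). Cxcl14 stayed between -1.98 and -1.42 and was filled with each single mouse left out, while Cxcl1 moved to -0.72 without c129 and Cxcl12 stayed around 0.

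Levels of different genes were compared per kilobase of annotated exons. The order differed between the groups. In WT mice the mean was 608 CPM per kb for Ccl6, 117 for Ccl9, 41.1 for Cxcl14, 27.3 for Cxcl12, 18.8 for Cxcl2, 18.7 for Cxcl1, 11.1 for Cxcl10, 10.5 for Ccl2, 9.22 for Ccl7 and 5.51 for Ccl11. In cD2KO mice it was 120.4 CPM per kb for Ccl6, 27.2 for Cxcl12, 26.5 for Ccl9, 12.8 for Cxcl14, 6.19 for Cxcl1, 2.83 for Cxcl2, 2.74 for Ccl11, 2.63 for Cxcl10, 2.26 for Ccl7 and 1.40 for Ccl2. The ranges over the mice of a group did not overlap between Ccl6 and Ccl9 or between Ccl9 and Cxcl14 in WT, nor between Cxcl14 and Cxcl1 in cD2KO, and overlapped for the other neighbours in each order. Ranges take no account of values from the same mouse, and Ccl6 was above Ccl9 in each of the 6. In CPM without length, Ccl6, Ccl9 and Cxcl12 led in WT with means of 1091, 357 and 223 CPM, and in cD2KO Cxcl12 and Ccl6 were near each other at 222 and 216 CPM, followed by Ccl9 at 80.6 CPM. The labels name a digital RNA-seq service, and whether its reads come only from transcript ends, which would make the division by length unsuitable, is not given in the sources used here.

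The make-up of the ligand reads differed between mice as well as their sum. The 10 ligands added up to 1212, 2738 and 1662 CPM in WT mice c124, c129 and c130 and to 276, 700 and 740 CPM in the libraries labelled fl125, fl126 and fl128, with no overlap between the groups. Ccl6 was the leading ligand in 5 of the 6 mice, with 50.6%, 61.4% and 58.9% of the sum in WT and 40.1% and 47.3% in fl126 and fl128. In the library labelled fl125 it took 6.39% and Cxcl12 took 79.0%. The share of Cxcl12 in the other mice ran from 6.55% in c129 to 35.5% in fl126. These are shares of a sum, so a lower Ccl6 raises the share of Cxcl12 without a change in its own level, and the level of Cxcl12 in fl125, 218 CPM, was within the range of the other mice.

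**Figure D4:**
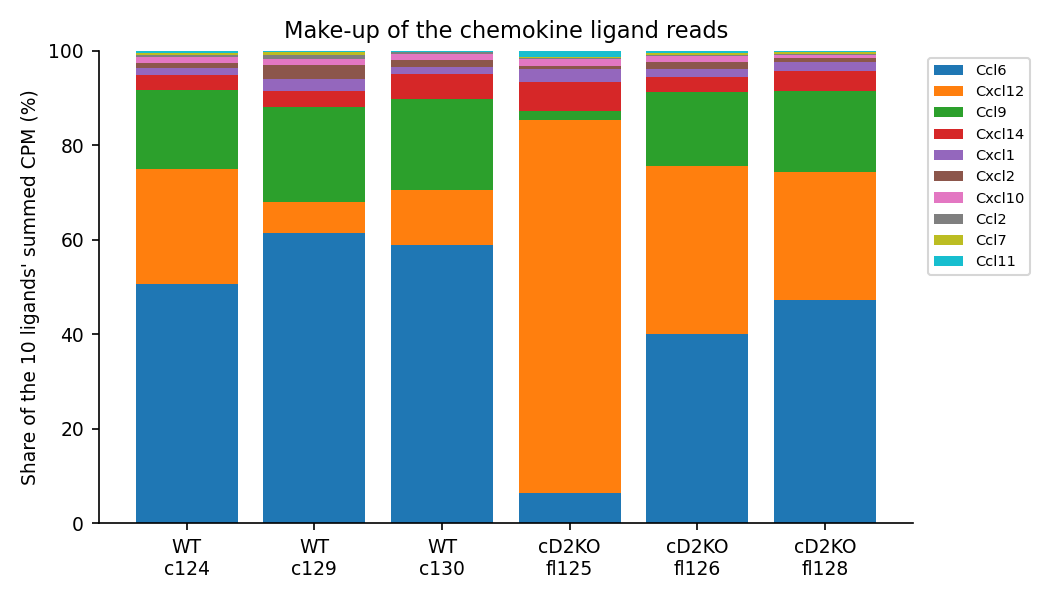
Share of each ligand in the summed CPM of the 10 ligands in each mouse, in percent. Ccl6 led in 5 mice, with 40.1% to 61.4%, and Cxcl12 led in the library labelled fl125 with 79.0%.

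Among the lists of cell type markers, the summed level of the myeloid and of the endothelial list was lower in all cD2KO than in all WT mice, that of the mural list was higher, and those of the FAP, neutrophil, lymphoid, myofiber and MuSC lists overlapped. A sum is weighted towards its most abundant markers, and single markers of the endothelial and mural lists went in both directions. The sort for GFP expressed from Pax7 should remove cells of the other types. The sum of 15 myeloid markers, all of which are expressed by macrophages or monocytes, was 4271 to 7848 CPM in WT and 233 to 2458 CPM in cD2KO mice. The library labelled fl125 was lowest, with Cd14 at 0 and Mrc1 at 3 counts or fewer, and its sum was 233 CPM against 2186 and 2458 CPM in fl126 and fl128. Of these 15 markers 5 were lower at an unadjusted p under 0.05 in edgeR, as were 6.62% of all genes tested. In 14 of them every cD2KO mouse lay below every WT mouse, a pattern found in 10% of all genes. The most abundant, C1qa, was at 910, 1336 and 1062 CPM in WT and 44.4, 537 and 618 CPM in cD2KO. In bulk RNA, fewer cells of a type and less RNA per cell cannot be told apart. Per 1000 CPM of myeloid markers, Ccl6 was at 144 to 214 CPM in WT and at 75.9 to 142 CPM in cD2KO mice. On the same scale Ccl9 overlapped between the groups, at 47.4 to 70.3 and 21.4 to 51.7 CPM, as did Ccl2, Ccl7, Ccl11, Cxcl1, Cxcl2, Cxcl10 and Cxcl14, and Cxcl12 was higher in all cD2KO mice. The low myeloid sum of fl125 made it the highest mouse for Ccl2, Ccl7, Ccl11, Cxcl1, Cxcl10, Cxcl12 and Cxcl14. The overlap of Ccl2 rested on fl125, at 3.89 CPM from 2 counts. Ccl2 was at 0.626 and 1.02 CPM in fl126 and fl128 and at 1.08 to 3.00 CPM in WT. The other overlaps remained without fl125. The part of myeloid RNA in the ligand levels was not tested further.

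Fibroadipogenic progenitors (FAPs), the stromal cells of muscle, are a further known source of chemokines that the sort should remove. Their 12 markers summed to 3829 to 5621 CPM in WT and to 2371 to 4743 CPM in cD2KO mice and overlapped, with 3 of the 11 tested lower and 1 higher, and Dcn, the most abundant, had a log2 fold change of -0.39 (adjusted p = 0.710 with edgeR). Counts of genes called in this and the later lists stand beside 6.62% lower and 5.34% higher among all genes tested, at an unadjusted p under 0.05 in edgeR. In fl125 Pi16 was at 0 and Pdgfra at 3 counts or fewer. Per 1000 CPM of FAP markers, Cxcl14 was at 10.4 to 18.9 CPM in WT and at 5.98 to 7.26 CPM in cD2KO mice, and Cxcl10 at 3.74 to 7.01 and 0.862 to 2.66 CPM, both without overlap, as were Ccl2, Ccl6, Ccl9, Cxcl1 and Cxcl2 on this scale. The part of FAP RNA in these levels was not tested further. The 4 neutrophil markers overlapped between the groups, at 158 to 873 CPM in WT and 65.7 to 437 CPM in cD2KO, with S100a8 highest in c129, and Csf3r and Retnlg were at 0 in fl125. Endothelial markers summed to 254 to 363 CPM in WT and 203 to 252 CPM in cD2KO, so the sums of the groups lay close. Single markers differed more, with a median log2 fold change of -1.28 over the 9 tested. Of these 6 were lower and 0 higher, and 1 had an edgeR adjusted p under 0.1. Log2 fold changes were below 0 for 7 and above 0 for 2. The groups did not overlap for 5 markers lower in cD2KO and for 1 higher. Esam, the most abundant, went the other way, at 76.2 to 143 CPM in WT and 145 to 147 CPM in cD2KO mice. Its log2 fold change of 0.32 did not pass (adjusted p = 0.632 with edgeR). Tie1 was at 0 in fl125 and Cldn5 at 0 in fl126. The 6 lymphoid markers summed to at most 27.3 CPM, led by Nkg7, which was at 0 in fl125. Mural markers summed to 5101 to 8978 CPM in WT and 10442 to 15274 CPM in cD2KO mice, and Acta2 among them rose at the unadjusted threshold (log2 fold change 1.17, adjusted p = 0.158 with edgeR). Myofiber markers summed to 1659 to 5693 CPM over all mice, led by Acta1. The 10 MuSC markers, all above 3 counts in each mouse, summed to 1530 to 1977 CPM in WT and 1732 to 2955 CPM in cD2KO mice, led by Chodl, and 3 of them were higher. Sdc4 is in this list and in that of presenting molecules below.

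**Figure D5:**
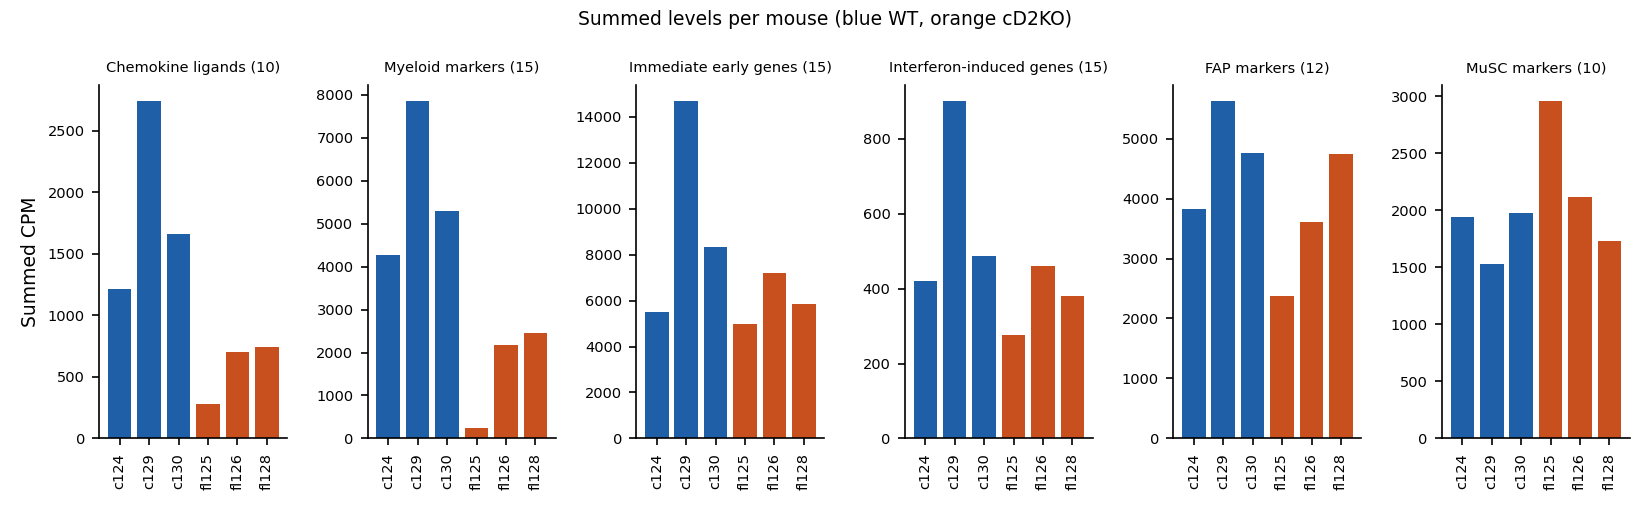
Summed CPM per mouse of the 10 chemokine ligands, of 3 lists of cell type markers (myeloid, FAP and MuSC), of the immediate early genes and of the interferon-induced genes, WT in blue and cD2KO in orange, each panel on its own axis from 0. Myeloid markers were at 233 CPM in the library labelled fl125, and immediate early genes were at 14678 CPM in c129.

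The ligands outside the 10 were mostly low. Of 30 further ligand genes listed, 29 were matched by symbol (Cxcl11 was not), 21 had at least 1 count, 11 were tested and 2 of these fell and 0 rose. Ccl24, an eosinophil chemoattractant made by macrophages, was at 41.2, 97.2 and 40.8 CPM in WT and at 4.53, 9.24 and 17.3 CPM in cD2KO mice, a log2 fold change of -2.49 (SE 0.49, adjusted p = 0.0974 with edgeR), and kept its call with any mouse left out. Pf4, a platelet and macrophage chemokine, was at 399, 599 and 512 CPM in WT and 15.9, 146 and 168 CPM in cD2KO, with a log2 fold change of -2.19 (SE 0.84, unadjusted p = 0.0497, adjusted p = 0.418 with edgeR). Pf4 passed without fl125 (log2 fold change -1.64, unadjusted p = 1.6e-06) and did not pass with any other single mouse left out, with log2 fold changes from -2.63 to -2.01 and unadjusted p from 0.0783 to 0.114. With c124 left out 4 of these further ligands were lower, with fl125 or fl126 left out 3 were, and with c129, c130 or fl128 left out 1 was. Ccl8, named after its values were seen, was without overlap too, at 183 to 384 CPM in WT and 2.27 to 136 CPM in cD2KO, but did not pass the test (log2 fold change -1.74, edgeR adjusted p = 0.650).

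Most receptors were too scarce to test. Of the 18 chemokine receptors listed 4 were tested, 2 fell and 0 rose, and of the 5 atypical receptors 3 were tested and 0 passed. Ccr2, the receptor of Ccl2 and Ccl7, was at 6.66, 30.6 and 15.9 CPM in WT and at 0, 2.74 and 4.72 CPM in cD2KO mice, a log2 fold change of -2.72 (SE 0.80, adjusted p = 0.190 with edgeR), and was lower with any mouse left out. Cxcr4 was at 32.3, 60.0 and 37.0 CPM in WT and at 25.4, 19.2 and 23.6 CPM in cD2KO, a log2 fold change of -0.92 (SE 0.30, adjusted p = 0.203 with edgeR). Without c129 that of Cxcr4 was -0.59 with an unadjusted p of 0.0684, leaving 1 receptor called, and without c124 3 were. Ackr3, which removes Cxcl12, was at 60.4, 57.8 and 53.0 CPM in WT and at 62.1, 66.1 and 95.9 CPM in cD2KO, without overlap but with a log2 fold change of 0.39 that did not pass (SE 0.22, adjusted p = 0.526 with edgeR), except without fl125 (0.54, unadjusted p = 0.0295). Ackr1 at 0.60 and Ccr1 at -1.49 on the log2 scale did not pass either (adjusted p = 0.749 and 0.515 with edgeR), although Ackr1, which shares exons with Cadm3 on the same strand, did without c130 (1.67, unadjusted p = 0.0148) and Ccr1 without c124 (-1.99, unadjusted p = 0.0236). The highest level in any mouse was 1.04 CPM for Cxcr2, 3.12 CPM for Cxcr3 and 2.21 CPM for Ccr3, and these were not tested.

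Downstream of the receptors, 4 of the 15 tested genes of the signal relay fell and 0 rose, namely Dock2, a Rac activator of leukocytes (log2 fold change -1.63, edgeR adjusted p = 0.112), the inhibitory G protein subunit Gnai3 (-0.88, 0.260), the arrestin Arrb2 (-0.72, 0.305) and the kinase subunit Pik3cg (-2.50, 0.307). Of these 4, Dock2 alone kept its call without c129. Of 12 tested genes that cleave or present chemokines, Ndst2, which sulfates heparan chains (-1.48, edgeR adjusted p = 0.162), and the heparan sulfate carrier Sdc3 (-0.78, 0.204) fell, 0 rose, and 3 fell without fl125 and 4 without fl128. Exons of other genes overlap Dock2 and Sdc3 on the opposite strand.

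Some genes of the inducing pathways fell at the unadjusted threshold, none had an edgeR adjusted p under 0.1, and the counts depended on c129. Of 17 tested genes of the NF-kB list 6 fell and 0 rose, with a median log2 fold change of -0.55. Tnf (-3.35), Rel (-2.15), Birc3 (-1.45), the inhibitor Nfkbie (-1.24) and the inhibitor Nfkbia (-0.74) had the smallest p, with edgeR adjusted p from 0.162 to 0.315, and 3 of the list fell without c129 and 4 without fl126. Of 15 interferon-induced genes 6 fell and 0 rose, with a median of -0.79, among them Oasl2 (-1.12), Ifit3 (-1.16), Gbp3 (-1.46), Bst2 (-0.75) and Isg15 (-0.96), with edgeR adjusted p from 0.195 to 0.379. Without c129 1 of them fell, and without fl125 2 did. Without both of these mice 1 fell and 1 rose. Of 15 immediate early genes, which respond to stress and to the digestion of tissue, 8 fell and 0 rose, with a median of -0.86, the smallest p being those of Dusp1 (-0.78), Hspa1b (-1.08), Ier2 (-1.26), Socs3 (-0.70) and Jun (-0.73), with edgeR adjusted p from 0.227 to 0.375. The immediate early genes summed to 14678 CPM in c129 against 5526 and 8315 CPM in the other WT mice and 4980 to 7214 CPM in cD2KO. Without c129 0 of them fell, without fl128 1 did and without c124 13 did. Without fl125 2 fell and 1 rose, and without c129 and fl125 together 0 fell and 1 rose. Hspa1b and its near copy Hspa1a may share reads, and Dusp1 and Jun overlap other genes on the opposite strand. Per 1000 CPM of immediate early genes, Ccl2, Ccl6, Ccl9, Cxcl1, Cxcl2, Cxcl10 and Cxcl14 were lower in all cD2KO than in all WT mice, and Cxcl10 was at 2.54 to 2.68 CPM in WT and 0.700 to 1.33 CPM in cD2KO. The part of these pathways in the ligand levels was not tested.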

How the data were processed

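RNA of sorted MuSCs from 3 WT and 3 cD2KO mice was sequenced. Per the labels, the submitters' processing notes name mm10, bcl2fastq, STAR 2.6.0a and HTSeq 0.9.1, and the authors deposited raw counts of reads per gene, without normalization. Annotation, strand, duplicates and multi-mapping are not given in the sources used here. Symbols, coordinates and exon lengths came from GENCODE M21, in which 31011 of 31053 identifiers were found.

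The study's expression minimum, a DESeq2-normalized mean over 10, kept 11633 genes. Counts were scaled with TMM and compared in R 4.3.3 by edgeR 4.0.16 (quasi-likelihood, robust, no covariate), called at an unadjusted p under 0.05, the study's line, with Benjamini-Hochberg adjustment over all genes. CPM use TMM-scaled totals. Alternatives were DESeq2 1.42.0, limma 3.58.1 voom, other scalings and filters, and mice left out. The tests were tried first on simulated counts with the same dispersion for every gene and no outlying library. Those counts do not cover mice that stand apart, such as c129 and fl125. The ligands and lists were chosen with earlier results of these data known. The genes named are the ligands, their tested receptors, up to 5 called genes per list and direction, the most abundant gene of each marker list and Dio2. Each library is a separate mouse, so p-values measure the spread between mice, and the labels give no batch. A few genes and the results that need them are not reported here.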

Additional observations from a re-analysis of the deposited data

How the results depend on the processing

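The count of 6 lower ligands was 5 to 8 under the other tests, scalings, filters and estimation settings except a minimum mean of 50, which left 3 lower because fewer ligands were tested, and calls at an adjusted p under 0.1, which left 2. With each mouse left out in turn it was 4 to 7, and 0 ligands were higher in any of these. Over all genes, a minimum mean of 50 gave 505 lower and no minimum gave 939 higher, and calls at an adjusted p under 0.1 gave 33 higher and 57 lower. Without each mouse in turn 406 to 934 genes were higher and 408 to 866 lower. Without c129 and fl125 together, which was chosen after seeing the data, 976 were higher. The 2 further ligands called lower were 3 under DESeq2, limma voom and the removal of both mice, 1 under DESeq2 size factors, edgeR's own filter and an adjusted p, 4 without a minimum, 5 with non-robust estimation and 1 to 4 with each mouse left out. The 2 lower receptors were 3 under edgeR's own filter, 1 at a minimum mean of 50, 6 without a minimum, 0 by adjusted p and 1 to 3 with a mouse left out, with 0 to 1 higher, and 1 higher (Ackr3) without both mice. Over the lists of further ligands, receptors, relay and presentation together with the NF-kB, interferon and immediate early lists, 30 genes were lower, 20 of them from the last 3 lists, and 0 higher; these were 45 lower without a minimum, 1 by adjusted p, 14 lower and 3 higher without both mice, and 9 to 43 lower and 0 to 2 higher without each mouse.

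The log2 fold change of Cxcl12 changed sign under DESeq2 (0.00997), limma voom (0.0202), DESeq2 size factors (0.0103), no minimum (0.0205), and without c124 (0.25), fl125 (0.04) or fl128 (0.06), and ran from -0.12 to 0.25 over the mice left out singly. Other genes that changed sign were Ccr1 without c129 (0.10, from -1.99 over the mice left out singly), Chodl without fl125 (-0.13, up to 0.53) and without both mice (-0.26), S100a8 without c129 (1.17, from -0.49), fl125 (0.42) and both (1.65), Nkg7 without c129 (0.68, from -2.50), fl125 (0.40), fl128 (0.23) and both (1.22), and Dcn without both (0.15). The cause was not tested. Cxcl14 and Cxcl10 passed the unadjusted threshold in each alternative in which they were tested. Ccl6 passed it under DESeq2, limma voom and non-robust estimation, and without fl125, and Ccl9 under limma voom and non-robust estimation, and without fl125. Both also passed it without c129 and fl125 together. Ccl2 lost it under limma voom (unadjusted p = 0.0507), and Ccl7 lost it there too. No paired analysis was possible because the labels give nothing that links a WT mouse to a cD2KO mouse. Depth limits Ccl2, Ccl7 and Ccl11, which had 1 to 9 counts per cD2KO mouse. It also limits the value of Cxcl2 in fl125, which was at the floor of 3 counts.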
